A study of Homo sapiens with 4 samples.

Results

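The regions described here are H3K4me3 peaks that lay inside introns, outside annotated repeats and CpG islands, and far from the gene starts that HOMER uses. A peak was included when both its broad and its detailed HOMER annotation began with intron and its centre was more than 10 kb from the nearest annotated transcription start site (TSS). Of 110018 merged peaks, 17183 (15.6%) met this rule, and they are called distal intron peaks below. The distance is to HOMER's start set only, since 382 of the tested peaks lay within 1 kb of a transcript start in GENCODE 44, a larger annotation, and another 601 within 10 kb of one. The cells were HCC1428, an established luminal breast adenocarcinoma line of wild-type genotype. Both groups were collected on day 5, after culture with the vehicle DMSO or with C48, an inhibitor of KDM5 demethylases, at 2.5 µM. Each group had 2 libraries that the titles number as biological replicates, with no statement that they were grown apart, so a p-value reflects the spread between libraries alone, and that spread could be technical. The comparison asked how KDM5 inhibition changed H3K4me3 at these sites.

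H3K4me3, trimethylation of lysine 4 on histone H3, is deposited by the COMPASS family of methyltransferase complexes, several of which bind unmethylated CpG-rich DNA through CXXC domains, and it is concentrated at the starts of active genes. KDM5 enzymes remove the mark. Distal regulatory elements inside introns usually carry H3K4me1 with little H3K4me3, and an intron can also hold unannotated or alternative starts. CUT&Tag tethers the transposase Tn5 to the mark by an antibody, so that the DNA beside it is cut out and sequenced.

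The libraries held 58.4 to 88.4 M aligned tags, of which 64.0% to 66.3% fell in merged peaks. All 7 luminal markers examined (ESR1, GATA3, FOXA1, KRT8, KRT18, EPCAM and CDH1) had a peak within 2 kb of a start, with summed levels of 76.1 to 1860 per library, and each of the 7 was lower in both C48 libraries than in both DMSO libraries. At KRT8, for example, the sum was 1860 and 1777 in DMSO and 804 and 831 in C48. Beside these 7, 67.2% of all tested promoter-TSS peaks were called lower in C48 by the main test described below. The direction at the markers holds for the scaling used here, and their sums under other scalings are not given. No peak within 2 kb of a start was listed for KRT5, KRT14, PTPRC, CD3E, PDGFRB or PECAM1. The collagen gene COL1A1 had 1 at 781 to 1011 in the 4 libraries, and the basal marker TP63 had peaks summing to 7.87 and 14.1 in DMSO and 39.7 and 40.7 in C48. Levels throughout are HOMER tags per peak per 10 M aligned tags, multiplied by a TMM factor for each library, and are called scaled tags.

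The sequences below are the central 300 bases of named distal intron peaks. These are the 2 largest rises and the 2 largest falls among peaks with a mean of at least 20, 1 per host gene. The last is a strong peak in GRB2, and the stronger peak in GRID2IP is not shown. All sequences are on the plus strand of hg38, and capitals mark CpG dinucleotides. Both rises were poor in CpG, with 3 in the IFT122 window at chr3:129490200-129490499 and 0 in the DST window at chr6:56740329-56740628. The falls held 10 in DIP2C at chr10:436295-436594 and 7 in SLC38A8 at chr16:84014124-84014423. The window of the GRB2 peak, at chr17:75393850-75394149, held 12. These windows do not stand for the whole set. Over all tested distal intron peaks, the median log2 fold change with C48 was 0.34 at a CpG observed-over-expected ratio under 0.2. At a ratio of 0.4 to 0.6 the median was 0.68.
IFT122: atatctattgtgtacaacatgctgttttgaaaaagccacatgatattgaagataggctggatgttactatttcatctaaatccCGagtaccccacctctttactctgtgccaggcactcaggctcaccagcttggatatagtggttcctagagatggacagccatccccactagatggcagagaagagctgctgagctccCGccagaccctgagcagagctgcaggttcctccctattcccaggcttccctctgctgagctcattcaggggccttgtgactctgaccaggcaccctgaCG
DST: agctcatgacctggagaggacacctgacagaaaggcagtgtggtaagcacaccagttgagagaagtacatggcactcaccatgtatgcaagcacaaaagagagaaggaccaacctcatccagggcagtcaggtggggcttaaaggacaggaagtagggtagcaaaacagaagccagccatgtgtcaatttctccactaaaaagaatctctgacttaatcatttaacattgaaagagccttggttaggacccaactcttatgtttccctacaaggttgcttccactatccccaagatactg
DIP2C: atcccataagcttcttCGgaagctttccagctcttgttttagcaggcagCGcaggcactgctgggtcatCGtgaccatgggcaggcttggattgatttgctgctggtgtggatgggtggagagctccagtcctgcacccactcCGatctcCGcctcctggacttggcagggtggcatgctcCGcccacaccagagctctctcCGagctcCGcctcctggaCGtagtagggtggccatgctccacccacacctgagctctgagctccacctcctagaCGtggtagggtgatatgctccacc
SLC38A8: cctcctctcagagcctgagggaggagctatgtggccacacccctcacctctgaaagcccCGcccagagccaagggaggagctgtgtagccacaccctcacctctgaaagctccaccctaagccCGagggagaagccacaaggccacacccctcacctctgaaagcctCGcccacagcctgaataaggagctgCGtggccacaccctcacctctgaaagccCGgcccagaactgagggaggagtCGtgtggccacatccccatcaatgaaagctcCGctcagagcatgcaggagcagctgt
GRB2: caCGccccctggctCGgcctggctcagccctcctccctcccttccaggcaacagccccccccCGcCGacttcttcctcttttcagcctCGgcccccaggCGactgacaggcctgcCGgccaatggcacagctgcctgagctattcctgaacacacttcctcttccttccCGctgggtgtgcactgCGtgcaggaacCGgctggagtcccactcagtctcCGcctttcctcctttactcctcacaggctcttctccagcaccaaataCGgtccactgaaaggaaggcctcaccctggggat

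Many more distal intron peaks gained than lost H3K4me3 with C48, relative to the bulk of peaks. Of the 17183 distal intron peaks, 3921 had been called by HOMER in at least 1 of the 4 libraries, and 1956 of these had a mean of at least 5 scaled tags and were tested. The median level of the tested peaks was 8.53 and 8.82 scaled tags with DMSO and 12.5 and 11.9 with C48. By limma with Benjamini-Hochberg adjustment over all 33772 tested peaks, 988 distal intron peaks (50.5%) were called higher in C48 and 264 (13.5%) were called lower, and 704 were not called. Over all tested peaks, 32.3% were called higher and 39.2% lower. The median log2 fold change of the distal intron peaks was 0.53, with quartiles of -0.08 and 1.09, against -0.02 over all tested peaks. More than a 2-fold rise was called at 571 distal intron peaks and more than a 2-fold fall at 114, beside 12.7% and 4.98% of all tested peaks. The most similar class, 3289 repeat-free intergenic peaks over 10 kb from a TSS, had 54.3% called higher, 9.03% lower and a median of 0.60.

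**Figure D1:**
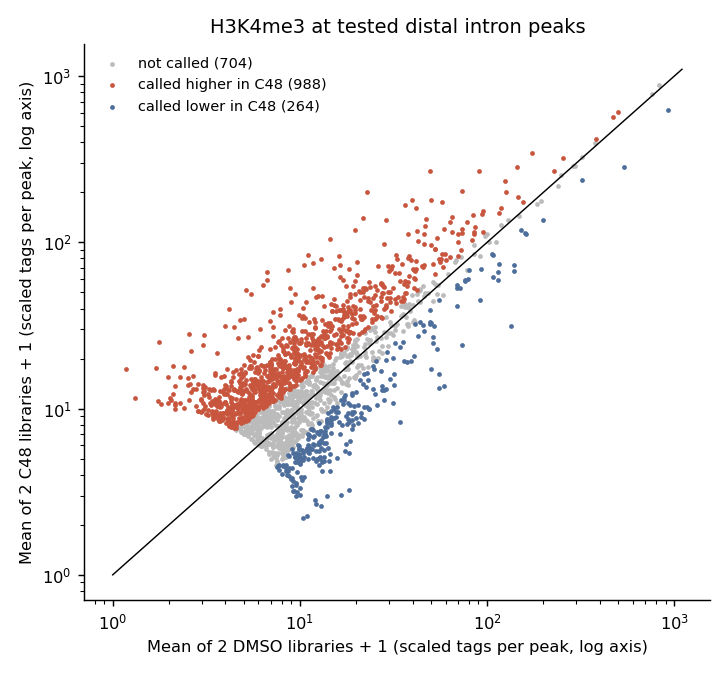
Mean scaled tags plus 1 in the 2 DMSO libraries (horizontal, log axis) and the 2 C48 libraries (vertical, log axis) for each of the 1956 tested distal intron peaks, with the line of equal values in black. Red points (988 peaks called higher) outnumber blue points (264 called lower), and the strongest peaks lie close to the line.

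Both C48 libraries lay above both DMSO libraries at 1192 distal intron peaks, a pattern seen at 40.7% of all tested peaks, and both lay below at 389, seen at 44.4% of all tested peaks. At the other 375 the groups overlapped. Levels of the tested distal intron peaks correlated on the log scale at 0.942 within DMSO, 0.964 within C48 and 0.684 to 0.711 across the groups, which describes peaks of shared libraries and not independent replicates.

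The number of calls depended on how the libraries were scaled, and so did the excess of rises over the background. Without TMM, on the values as deposited, 1312 distal intron peaks (67.1%) were called higher and 136 (6.95%) lower, beside 52.6% and 23.5% of all tested peaks. Scaling by the column total over called peaks gave 1343 (68.7%) higher and 116 (5.93%) lower, beside 56.4% and 20.7%. DESeq2 size factors gave 879 (44.9%) and 318 (16.3%), beside 27.1% and 43.5%, and scaling to 40 promoter peaks of ribosomal protein genes gave 1558 (79.7%) and 47 (2.4%), beside 79.4% and 4.63%, so that with the last scaling the share called higher was at the background. The gap in medians changed little, since in these 5 scalings the median of the distal intron peaks exceeded that of all tested peaks by 0.51 to 0.56 on the log2 scale. The count test of edgeR on recovered tags called 984 distal intron peaks higher and 263 lower, beside 32.2% and 39.2% of all tested peaks. A change shared by the whole genome could not be measured, because spike-in counts were not used here.

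Measures taken within each library need no scaling between libraries. The 3921 called distal intron peaks held 0.581% and 0.605% of the tags in called peaks with DMSO and 1.14% and 1.1% with C48. The share was therefore higher in both C48 libraries, by 0.531 percentage points (DMSO mean 0.593 ± 0.017, C48 mean 1.12 ± 0.0301, SD, n = 2 each, two-sided exact permutation p = 0.333). The log2 ratio of their mean level to that of promoter-TSS peaks was -5.21 and -5.15 in DMSO and -4.08 and -4.15 in C48, a difference of 1.07 (exact permutation p = 0.333). Against repeat-free intergenic peaks over 10 kb from a TSS, the log2 ratio was -0.44 and -0.418 in DMSO and -0.335 and -0.337 in C48. That difference of means over all called peaks, 0.0932, was small but larger than the spread between replicates (SD 0.0155 and 0.00172, exact permutation p = 0.333). A ratio of mean levels gives strong peaks more weight. By the median log2 fold change of tested peaks the order was the reverse, with 0.53 at distal intron peaks and 0.60 at intergenic peaks. With 2 libraries against 2, no exact p below 0.333 is possible.

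The 3921 called distal intron peaks were themselves admitted by HOMER's calls, of which there were 1847 and 1696 per DMSO library and 2638 and 2796 per C48 library. The C48 libraries had more calls over all peaks too, with 37462 and 37867 against 30162 and 29745. Both C48 libraries and neither DMSO library were called at 718 (12.1% of all called peaks had this pattern), the reverse held at 184 (2.61% of all called peaks), and all 4 libraries were called at 1026. A peak called in C48 alone entered the test through the group where it was high, so the peaks called in every library are the plainer measure. Among the 1021 tested distal intron peaks called in all 4 libraries, 457 (44.8%) were called higher, 144 (14.1%) lower, and the median log2 fold change was 0.36. The shares over peaks of every class called in all 4 libraries are not given here. These 2 shares therefore have no matching background. A HOMER call in 1 group was not always a change. Of the 98 tested peaks called in both DMSO libraries and no C48 library, 62 were called lower and 9 were called higher.

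The distal intron peaks that were not tested were weak. Of the 1965 called peaks under the minimum mean, 679 were called higher and 188 lower in a fit with no filter, with a median log2 fold change of 0.75, beside 32.9% and 30.6% of all 45692 called peaks in that fit. The 13262 peaks called in no library had a median of 0.247 scaled tags, and 147 of them reached a mean of 5. They belong to the merged set without a call in the libraries used here, and where they were called was not examined.

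Peak strength separated distal intron peaks from promoters more than it separated them from each other. The tested distal intron peaks had a median of 10.3 scaled tags, against 242 at promoter-TSS peaks and 11.7 at the intergenic peaks. The median log2 fold change of distal intron peaks was 0.48 at a mean of 5 to 10, 0.61 at 10 to 20, 0.64 at 20 to 50, 0.52 at 50 to 100 and 0.17 in the 55 peaks over 100. In the last bin 29 distal intron peaks were called higher and 9 lower. The intergenic peaks had higher medians where most peaks lie, 0.67 at 5 to 10 and 0.66 at 10 to 20, and a lower one of 0.59 at 20 to 50. Those over 100 (162 peaks) had a median of -0.07, with 58 called higher and 66 lower, and promoter-TSS peaks over 100 had a median of -0.62, with 423 called higher and 4899 lower. Weak promoter-TSS peaks, with a mean of 5 to 10, had a median of 0.41, close to that of distal intron peaks of that strength.

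**Figure D2:**
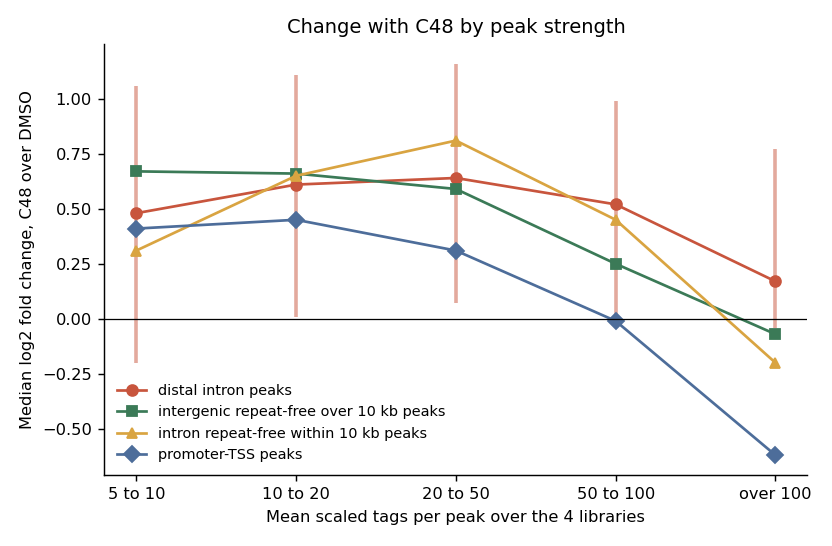
Median log2 fold change of C48 over DMSO (vertical) by mean scaled tags over the 4 libraries (horizontal) for distal intron peaks (red, bars from lower to upper quartile), intergenic repeat-free peaks over 10 kb (green), repeat-free intron peaks within 10 kb (yellow) and promoter-TSS peaks (blue). The classes lie between 0.31 and 0.67 at a mean of 5 to 10, and at over 100 they range from -0.62 at promoters to 0.17 at distal intron peaks.

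The rise was larger at peaks farther from the nearest start in HOMER's set. The median log2 fold change was 0.28 at 10 to 20 kb (528 peaks), 0.40 at 20 to 50 kb (665 peaks), 0.69 at 50 to 100 kb (384 peaks) and 0.91 at over 100 kb (379 peaks). At over 100 kb, 267 peaks were called higher and 11 lower, against 212 and 98 at 10 to 20 kb. Median levels in these bins were alike, at 10.1 to 10.8 scaled tags. Among the weakest tested peaks, with a mean of 5 to 10, the median went from 0.11 in the nearest bin to 0.95 in the farthest, and among those with a mean of at least 20 it went from 0.43 to 0.70. Intergenic repeat-free peaks showed 0.29 and 0.82 in the same outer bins. Under the 5 scalings the nearest and farthest bins of distal intron peaks were 0.16 and 0.79 at the lowest and 1.06 and 1.66 at the highest. Just outside the 10 kb limit, 156 tested repeat-free intron peaks at 8 to 10 kb had a median of 0.03, and 139 at 10 to 12 kb had 0.19.

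**Figure D3:**
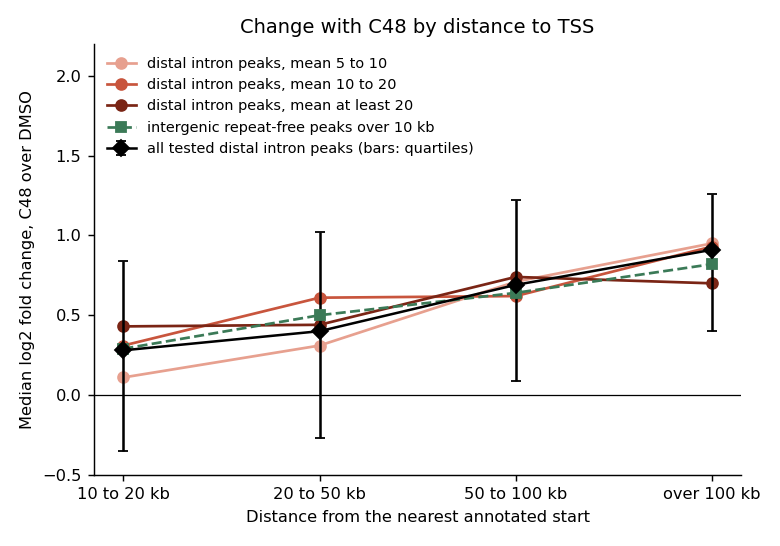
Median log2 fold change of C48 over DMSO (vertical) by distance from the nearest annotated start of HOMER's set (horizontal) for all tested distal intron peaks (black, bars from lower to upper quartile), for 3 ranges of mean scaled tags (shades of red) and for intergenic repeat-free peaks (green, dashed). The black line goes from 0.28 at 10 to 20 kb to 0.91 at over 100 kb.

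Other features of position moved the values less. Peaks in the first intron had a median of 0.50, those in the second 0.56, in the third 0.66 and in the fourth or later 0.51. The HOMER start set is smaller than GENCODE 44, in which 382 tested distal intron peaks lay within 1 kb of a transcript start and 459 overlapped an exon. By distance from a GENCODE start there was no steady increase. These 382 peaks had a median of 0.59, with 202 called higher and 66 lower, the 601 peaks at 1 to 10 kb had 0.39, with 270 higher and 93 lower, and the 972 peaks over 10 kb from every GENCODE start had 0.62, with 516 higher and 105 lower. Distal intron peaks within 5 Mb of a chromosome end, a feature chosen after the values were seen, had a median of 0.79 (345 peaks, 214 higher, 40 lower), against 0.45 at over 20 Mb (1033 peaks, 480 higher, 151 lower). Among peaks over 100 kb from a TSS, those within 10 Mb of an end had a median of 1.04 and the rest 0.79, and among nearer peaks the medians were 0.63 and 0.37. Of the tested peaks, 1697 lay in introns of protein-coding genes (median 0.54) and 232 in introns of long noncoding RNA genes (median 0.52).

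Base composition and width also went with the change. The tested distal intron peaks had a median GC content of 53.0% and a median CpG observed-over-expected ratio of 0.319 in their central 200 bases, against 68.5% and 0.815 at promoter-TSS peaks and 52.5% and 0.387 at the intergenic peaks. The median log2 fold change was 0.69 in peaks under 45% GC, where 226 were called higher and 12 lower, and 0.14 in peaks over 65% GC, where 62 were higher and 43 lower. By CpG ratio it was 0.34 under 0.2, 0.54 at 0.2 to 0.4, 0.68 at 0.4 to 0.6 and 0.55 over 0.6. Peaks narrower than 300 bases had a median of 1.29, with 92 of 111 called higher and 0 called lower, and peaks of at least 700 bases had 0.29, with 271 of 657 higher and 125 lower. Widths came from the peak calls of these and other libraries, so they are not independent of the signal.

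Short motifs of transcription factors were about as common in distal intron peaks as in the intergenic ones. In the central 200 bases, on both strands, the AP-1 motif TGANTCA was held by 6.55% of tested distal intron peaks, 7.24% of intergenic, 2.10% of promoter-TSS and 3.73% of all tested peaks. The GATA motif AGATAA was held by 7.37%, 7.48%, 2.10% and 3.85% in that order, the forkhead motif TGTTTAC by 3.99%, 3.59%, 1.1% and 2.72%, and the TEAD motif GGAATG by 13.6%, 12.3%, 6.06% and 8.18%. The GC box GGGCGG was in 13.7% of distal intron peaks and 56.6% of promoter-TSS peaks, and in 35.9% of all tested peaks. Distal intron peaks with a GC box had a median log2 fold change of 0.30 and those without one 0.57, and for AP-1 the medians were 0.47 and 0.53. The interferon-stimulated response element (ISRE), taken as 2 GAAA joined by 2 bases, was in 75 distal intron peaks (3.84%, against 4.35% of intergenic and 2.24% of all tested peaks), of which 45 were called higher and 3 lower. A match of these letters is a description of the sequence only.

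The remaining motifs searched were of the same order in both distal classes. In distal intron and intergenic peaks they were the nuclear receptor motif AGGTCA at 11.6% and 10.7%, ETS CCGGAAG at 2.05% and 2.53%, the E-box CACGTG at 3.63% and 4.14%, TFAP2 GCCNNNGGC at 11.2% and 11.0%, grainyhead AACCNGTT at 1.74% and 2.22%, and the CTCF core AGGNGGC at 18.7% and 20.7%. The same motifs were in 10.5%, 4.35%, 3.88%, 19.5%, 1.05% and 29.6% of all tested peaks. GC box and CTCF core can overlap in their letters.

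Some falls lay in sequence with internal tandem repetition, although HOMER annotated the sites as plain intron. For each peak, the central 300 bases were compared with themselves at lags of 10 to 100 bases, and the best share of equal bases was taken, a measure chosen after the falls were seen. At GRIN1 63.0% of bases were equal at a lag of 16 bases, at SLC38A8 48% at 54 bases and at DIP2C 39.0% at 59 bases, whereas the 6 largest rises reached 32.5% to 35.5%. The falls at FRMD4A (33.8%) and PPP5C (34.9%) lay within the range of the rises. Over all tested distal intron peaks, 64 reached 40%, of which 25 were called higher and 20 lower (31.2%), against 963 and 244 (12.9%) of the other 1891. The intergenic peaks showed 27.8% and 8.46% called lower in these groups. The sources used here do not say how reads that map to several repeat units were placed, and the part of mapping in these falls was not tested.

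The largest rises were taken among distal intron peaks with a mean of at least 20 and no overlap between groups. A large rise under these limits needs a high C48 level, so the form of these peaks follows in part from the choice. The peak at chr3:129490152-129490546, in intron 13 of IFT122, a component of the intraflagellar transport complex of cilia, measured 5.11 and 3.18 scaled tags in DMSO and 45.1 and 56.1 in C48 (39 and 18 tags against 303 and 467). Its log2 fold change was 3.34 ± 0.22 (SE, adjusted p = 4.05e-18). Separation of the C48 from the DMSO libraries was a condition of the choice. In intron 2 of DST, which encodes the cytoskeletal linker dystonin, the peak at chr6:56740153-56740804 measured 4.86 and 6.53 in DMSO and 66.2 and 64.6 in C48 (log2 fold change 3.32 ± 0.19, adjusted p = 2.57e-20). It lay 97.6 kb from the HOMER start and 45401 bases from any GENCODE start.

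The other large rises were chosen under the same limits. The peak in KCNMA1-AS3, a noncoding gene antisense to the potassium channel gene KCNMA1 (chr10:77370618-77371258) measured 3.15 and 3.18 in DMSO and 35.8 and 42.0 in C48 (3.26 ± 0.24, adjusted p = 8.77e-17). In FAM178B (chr2:96953541-96953986) the values were 5.11 and 3.87 against 48.2 and 47.3 (3.16 ± 0.21, adjusted p = 7.46e-18). In RUSC2 (chr9:35520521-35521012) they were 5.5 and 5.82 against 61.1 and 56.0 (3.16 ± 0.19, adjusted p = 2.02e-19). Low DMSO and high C48 levels at these peaks follow in part from those limits. The strongest of the 6 after treatment was in intron 1 of RXRA (chr9:134355654-134356331), which encodes retinoid X receptor alpha, the partner of many nuclear receptors. It measured 22.2 and 21.2 scaled tags in DMSO and 202 and 197 in C48 (3.15 ± 0.11, adjusted p = 6.94e-28), and another merged peak began 40 bases away.

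The largest falls with a mean of at least 20, a limit that itself asks for a high DMSO level, were the following. In intron 4 of DIP2C (chr10:436105-436784) the level went from 59.4 and 56.2 in DMSO to 11.3 and 13.9 in C48 (-2.12 ± 0.17, adjusted p = 1.27e-15). In intron 8 of SLC38A8, an amino acid transporter gene (chr16:84013987-84014559), it went from 127 and 139 to 29.0 and 31.8 (-2.09 ± 0.11, adjusted p = 3.14e-21). In GRIN1, which encodes an NMDA receptor subunit (chr9:137150443-137151373), it went from 50.5 and 57.8 to 13.4 and 11.3 (-2.05 ± 0.17, adjusted p = 7.22e-15). No library of 1 group reached the range of the other at these sites, which was a condition of their choice. A fall in FRMD4A (chr10:14185552-14185953) went from 30.0 and 36.1 to 5.95 and 8.77 (-2.04 ± 0.22, adjusted p = 1.5e-11). The last of the 6 were in the read-through gene RTEL1-TNFRSF6B (chr20:63682455-63683096), with 51.1 and 57.1 against 15.9 and 14.4 (-1.77 ± 0.16, adjusted p = 1.48e-13), and in PPP5C, a serine/threonine phosphatase gene (chr19:46373726-46374761), with 71.9 and 72.8 against 21.7 and 24.5 (-1.61 ± 0.14, adjusted p = 2e-14). The RTEL1-TNFRSF6B peak lay 238 bases from a GENCODE start of RTEL1, and 5 of the 6 falls had a GC content of 61.0% or more in their central 200 bases.

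With TMM scaling, the 6 strongest distal intron peaks differed by less than 2-fold between groups and did not share a direction. The highest mean was at the last intron of TBC1D31, near FAM83A (chr8:123158306-123159066), with 826 and 832 scaled tags in DMSO and 879 and 884 in C48 (0.09 ± 0.04, adjusted p = 0.0528). In ASAP1, an Arf GTPase-activating protein gene (chr8:130357463-130358213), the values were 804 and 721 against 788 and 769 (0.03 ± 0.05, adjusted p = 0.528). These 2 of the 6 were not called, but as deposited, by column total and with ribosomal protein promoters both were called higher, by 0.49, 0.55 and 0.94 at TBC1D31 and by 0.43, 0.50 and 0.89 at ASAP1. Rises were called in GRB2, which encodes a growth factor receptor adaptor (chr17:75393411-75394588, 481 and 523 against 607 and 615, 0.28 ± 0.05, adjusted p = 1.93e-06), and in the integrin gene ITGAD (chr16:31403789-31404834, 459 and 475 against 566 and 571, 0.28 ± 0.05, adjusted p = 2.07e-06). Falls were called in GRID2IP (chr7:6503336-6504518, 893 and 963 against 617 and 634, -0.57 ± 0.04, adjusted p = 9.47e-16) and in CELF5, an RNA-binding protein gene (chr19:3284976-3286217, 545 and 531 against 284 and 281, -0.93 ± 0.05, adjusted p = 3.78e-20). The GRB2 peak was 34 bases from a GENCODE start of GRB2 and the CELF5 peak 834 bases from one of CELF5. The peaks in ASAP1, TBC1D31, ITGAD and GRID2IP lay 949, 957, 1746 and 12829 bases from a GENCODE start. Of the 6 strongest, all but the TBC1D31 peak overlapped a GENCODE exon. The fall at GRID2IP became a rise of 0.29 when libraries were scaled to ribosomal protein promoters, and that at CELF5 was no longer called (-0.07, adjusted p = 0.251). With the same scaling the log2 fold change was 1.14 at both GRB2 and ITGAD, over 2-fold. With DESeq2 factors it was -1.05 at CELF5.

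**Figure D4:**
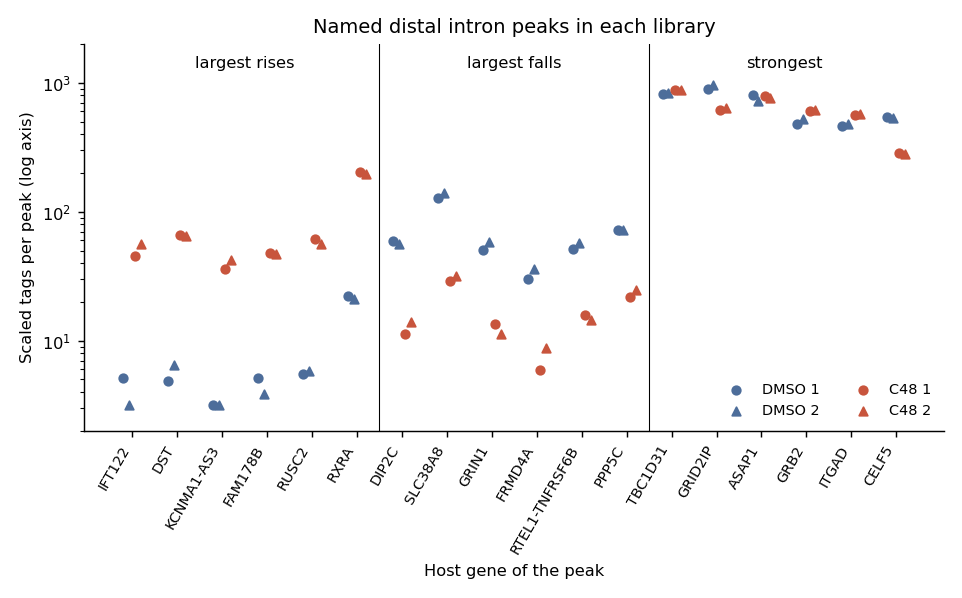
Scaled tags per peak (vertical, log axis) in each of the 4 libraries (DMSO blue, C48 red, replicate 1 circles, replicate 2 triangles) at the 6 largest rises, the 6 largest falls and the 6 strongest distal intron peaks, by host gene. The rises go from 3.15 to 22.2 scaled tags in DMSO to 35.8 to 202 in C48, and the strongest peaks lie between 281 and 963 in every library.

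The 1946 tested distal intron peaks with a matched host were spread over 1235 host genes, and a few long genes held many. PTPRN2, a receptor-type tyrosine phosphatase gene of neuroendocrine secretory vesicles near the end of 7q, held 25, of which 24 were called higher and 0 lower. Their summed level was 209 and 219 scaled tags in DMSO and 600 and 546 in C48, and their log2 fold changes ran from 0.35 to 2.08 over 726 kb of the gene, while its own promoter peak had -0.73. The peak with the largest fold change of these, in intron 13 (chr7:157653363-157653734), measured 4.32 and 1.58 in DMSO and 14.0 and 15.5 in C48. CDH4, a cadherin gene near the end of 20q, held 15, of which 14 were called higher and 0 lower, with summed levels of 120 and 128 against 295 and 273. DPP6, which encodes an auxiliary subunit of potassium channels, held 13, of which 12 were called higher and 0 lower (53.6 and 40.2 against 136 and 122). Only 25 of the 54 distal intron peaks in PTPRN2, 15 of 60 in CDH4 and 13 of 33 in DPP6 were tested. The tested DPP6 peaks had means of 5.09 to 10.7, near the minimum of 5. A peak with less than 5 in DMSO passed that minimum only through its C48 level, so the lack of called falls follows in part from the filter. The promoter peaks of these genes had log2 fold changes of 0.19 at CDH4 and 0.90 at DPP6.

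Host genes with mixed directions were also among those with the most peaks. PVT1, a long noncoding RNA gene, held 12 tested peaks, of which 2 were called higher and 5 lower. The 2 that rose were neighbours and the strongest of the gene, at 84.1 and 83.2 in DMSO against 142 and 149 in C48, and at 32.4 and 27.5 against 68.4 and 73.2. FIRRE, an X-linked long noncoding RNA gene, held 11, of which 2 were called higher and 4 lower, with summed levels of 768 and 820 in DMSO and 692 and 690 in C48. ADARB2, an RNA editing enzyme family gene at the end of 10p, held 10, of which 6 were called higher and 0 lower. Peaks of 1 gene share their surroundings and are not independent.

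**Figure D5:**
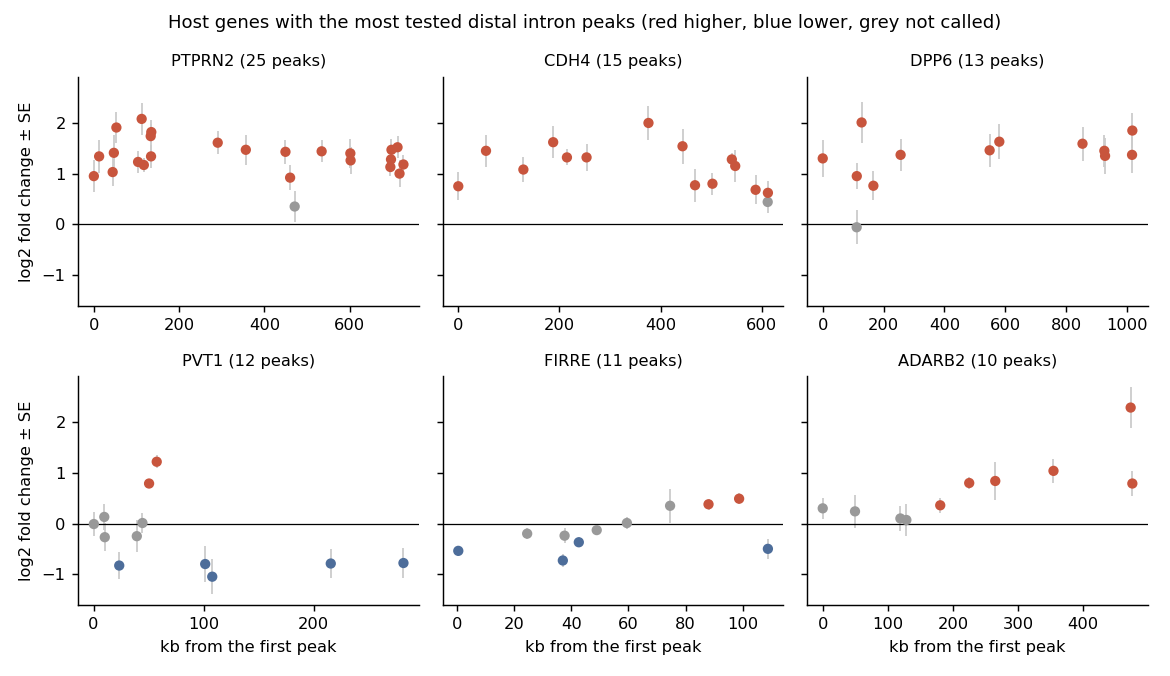
Log2 fold change of C48 over DMSO (vertical, bars are the SE) against distance in kb from the first tested peak of the gene (horizontal) for the tested distal intron peaks of the 6 host genes that held the most. PTPRN2, CDH4 and DPP6 have called rises along their whole length and no called fall, while PVT1 and FIRRE hold both.

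The gene lists were read by host or nearest gene. The neuronal and synaptic list (24 genes) held 333 distal intron peaks, of which only 59, in 14 genes, were tested. Of these 59, 49 (83.1%) were called higher and 2 lower, with a median log2 fold change of 1.06. Over all tested distal intron peaks, 50.5% were called higher and 13.5% lower. Without PTPRN2, 25 of 34 (73.5%) were called higher and 2 lower, with a median of 0.95. The list was chosen with earlier results of these data known. A peak low in DMSO passed the minimum mean only through its C48 level, a filter that all tested peaks share. How far the choice of list and the filter raised the share called higher was not tested. Among peaks over 50 kb from a TSS, the list had a median of 1.06 (45 peaks), or 0.96 without PTPRN2 (27 peaks, 77.8% called higher), and all tested distal intron peaks had 0.79 (763 peaks, 63.6% called higher). The scaffold gene SHANK2, which organises the postsynaptic density, held the largest, at chr11:71205210-71205645, with 7.87 and 7.93 scaled tags in DMSO and 51.2 and 53.7 in C48 (2.59 ± 0.19, adjusted p = 4.85e-17). Its neighbour at chr11:71205693-71206371 measured 20.3 and 18.0 against 73.9 and 76.1 (1.92 ± 0.14, adjusted p = 1.68e-16). All 7 peaks of the splicing regulator RBFOX1 and 6 of 7 of CSMD1 were called higher, and the called falls were 1 each in DLG2 (-0.53) and KCNMA1 (-0.88).

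Of the luminal and oestrogen response list (32 genes), 8 genes had 15 tested peaks, of which 10 were called higher and 1 lower, with a median of 0.53, the same as over all tested distal intron peaks. In GRHL2, an epithelial transcription factor gene (chr8:101504070-101505136), the level was 25 and 27.9 in DMSO and 47.4 and 49.4 in C48 (0.85 ± 0.15, adjusted p = 1.6e-06). In intron 2 of IGF1R, the receptor of insulin-like growth factor 1, 3 peaks rose, among them chr15:98873590-98874586 with 16.1 and 19.6 against 38.5 and 34.0 (0.99 ± 0.17, adjusted p = 2.17e-06) and chr15:98865717-98866359 with 12.1 and 15.7 against 29.0 and 31.3 (1.08 ± 0.19, adjusted p = 2.63e-06). The peak at chr15:98873590-98874586 lay 369 bases from a GENCODE start of IGF1R and overlapped a GENCODE exon. The growth factor and Hippo list (24 genes), which also holds IGF1R, had 7 tested peaks in 3 genes, with 4 called higher, 0 lower and a median of 0.99. The third IGF1R peak, at chr15:98853178-98853544, measured 15.5 and 10.0 against 25.7 and 30.7 (1.11 ± 0.20, adjusted p = 5.35e-06).

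The chromatin and corepressor list (22 genes) had 12 tested peaks in 5 genes, with 6 called higher, 1 lower and a median of 0.50. In intron 1 of MECOM, a zinc finger transcription factor gene, the peak at chr3:169323884-169324838 went from 14.3 and 20.6 to 48.3 and 43.7 (1.37 ± 0.17, adjusted p = 1.16e-09), and another at chr3:169242302-169242734 from 8 and 11.1 to 23.0 and 17.5 (1.02 ± 0.23, adjusted p = 0.000124).

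The remaining lists held few tested distal intron peaks. The H3K4 methylation list (20 genes) had 1, in intron 26 of KMT2B, an H3K4 methyltransferase gene (chr19:35731330-35731962), which fell from 14.0 and 19.0 to 4.46 and 4.69 scaled tags (-1.64 ± 0.27, adjusted p = 7.38e-07). That peak lay 598 bases from a GENCODE start of KMT2B and overlapped a GENCODE exon. The interferon and nucleic acid sensing list (36 genes) had 3, with 1 called higher and 2 lower. A peak nearest to the kinase gene JAK1 (chr1:64982893-64983772) went from 11.1 and 10.4 to 4.17 and 6.13 (-0.96 ± 0.29, adjusted p = 0.00342). That call was lost as deposited (adjusted p = 0.0566), by column total (0.0839), with ribosomal protein promoters (0.527) and without C48 replicate 1 (0.0714). A peak nearest to IRF1 (chr5:132464014-132464732) went from 6.69 and 5.99 to 11.0 and 9.61 (0.62 ± 0.28, adjusted p = 0.0431). That call was lost with DESeq2 factors (adjusted p = 0.0977), edgeR (0.0505) and the DESeq2 test (0.12), and without DMSO replicate 2 (0.101), C48 replicate 1 (0.238) or C48 replicate 2 (0.101).

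Distal intron peaks could be set beside the promoter of the gene that holds them, in the same libraries and at the same scaling. For 829 tested distal intron peaks in 473 host genes, the host had a tested promoter-TSS peak, of which the strongest was taken. The median log2 fold change was 0.57 at these intron peaks and -0.33 at their host promoters, and 649 of the 829 had a higher fold change than the promoter, with a median difference of 0.69. The intron peak was called higher and the promoter lower for 203, both higher for 132, both lower for 86 and the intron peak lower with the promoter higher for 6. Over all 7913 tested promoter-TSS peaks, 15.9% were called higher and 67.2% lower, with a median of -0.48. The difference between the 2 classes enters these counts, and a link particular to a gene and its own intron peaks was not tested. Pearson's r across these peaks was 0.27, a description over peaks that share libraries and often hosts.

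Neighbouring distal intron peaks mostly shared a direction, as most distal intron peaks did. Of the 1956 tested, 946 had another merged peak of any class within 1 kb. Joining tested distal intron peaks less than 1 kb apart gave 135 groups of 2 or more, with 281 peaks and at most 4 in a group. Fold changes were all positive in 97 groups, all negative in 12 and of both signs in 26, and 4 groups held both a called rise and a called fall. The median over all tested distal intron peaks was 0.53 and the lower quartile -0.08, so many groups of positive sign would arise without any link between neighbours. Such a link was not tested.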

How the data were processed

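H3K4me3 CUT&Tag libraries of HCC1428 cells, 2 from DMSO and 2 from C48, were compared. Groups and replicate numbers came from the sample titles, and the treated columns, tagged GNE, were matched to C48 through the sample descriptions. Per the submitters' processing notes and the study's methods, the authors aligned reads with Bowtie2 2.3.4.1 to hg38 and, for the spike-in nuclei, to dm6, and called and merged peaks with HOMER (version not stated in the sources used). The deposited annotated table gives the signal of every merged peak in each library as tags per 10 M aligned tags, without scaling to the spike-in. The authors' peak score was not used, nor was a deposited table of counts over repeat families.

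The distal intron peaks, gene lists and features were chosen with earlier results of these data known. Tag counts were recovered from the steps of the signal (100% of low values whole within 0.1 tag), giving 58.4 to 88.4 M tags per library. Values were scaled by TMM factors (edgeR 4.0.16), and limma-trend (limma 3.58.1, R 4.3.3) was fitted on log2(scaled value + 1) to all 33772 merged peaks with a HOMER call in 1 or more of the 4 libraries and a mean of at least 5. Fold changes on this scale understate those of weak peaks. Adjusted p-values are Benjamini-Hochberg, with calls at 0.05. The fit was tested on simulated data. Shares and ratios within libraries, over all called peaks, were compared by exact permutation. The replicate numbers were not used to pair the samples in the main fit. The design foresaw a count test for counts, and since the file holds a normalized signal, edgeR on the recovered tags was an alternative: it called 1247 distal intron peaks, of which 976 were higher and 259 lower by both tests, and 24111 of all tested peaks. Other alternatives were scalings, filters, pseudocounts (0.5 and 5), DESeq2 1.42.0, a replicate block, leaving out each library, and other definitions of the peaks.

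Named peaks were the 6 largest called rises and falls with a mean of at least 20 and no overlap between groups, the 6 strongest, 1 per host gene, the 6 host genes with the most tested peaks, and up to 3 peaks per list with the smallest p, of which some are not reported here. Host genes came from the intron's RefSeq transcript (17091 of 17183 matched, GRCh38.p14). Sequences, GC content and motifs came from hg38, and starts and exons from GENCODE 44, in which 98.5% of called promoter-TSS peaks lay within 1 kb of a start. Tables and figures used Python 3.11.15, pandas 2.3.3, scipy 1.17.1 and matplotlib 3.10.9.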

Additional observations from a re-analysis of the deposited data

How the results depend on the processing

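The direction of the median and the excess of rises over falls were kept under each alternative run. Among the alternatives on the same peaks, scaling moved the values most. Calls lower in C48 went from 264 to 136 as deposited, 116 by column total and 47 with ribosomal protein promoters, where calls higher went from 988 to 1558. The median log2 fold change of 0.53 became 0.89 as deposited, 0.95 by column total, 0.42 with DESeq2 factors and 1.31 with ribosomal protein promoters. With no filter 1669 were called higher and 453 lower of 3921 (median 0.66), and with a minimum mean of 10, 584 and 135 of 1007 (0.57), since the number of peaks changed. For peaks over 50 kb from a TSS 485 were higher and 45 lower of 763 (0.79), and over 5 kb the median was 0.46. It was 0.39 with a pseudocount of 5, and 0.58 with both edgeR and DESeq2. Leaving out 1 library gave 757 to 954 higher, 204 to 256 lower and medians of 0.50 to 0.57, the lone library being assumed to vary like the other group.

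Deviations of same-numbered libraries from their group means correlated at -0.029 over 33772 peaks. That value over peaks of the same 4 libraries cannot show whether same-numbered libraries were grown or processed together. With the replicate block, 983 distal intron peaks were called higher and 263 lower (median 0.53).

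Of the 30 named peaks, 3 changed direction under some setting. TBC1D31 became -0.04 and ASAP1 -0.09 with DESeq2 factors, ASAP1 ranged from -0.05 to 0.11 when 1 library was left out, and GRID2IP became 0.29 with ribosomal protein promoters. The share of tags and the ratios to intergenic and promoter-TSS peaks kept their sign in each alternative run, with differences of 0.234 to 0.624 percentage points, 0.0689 to 0.157 and 1.01 to 1.23, and without a filter they are the values reported. The called peaks with a mean of at least 5 were added as an alternative after seeing the data. With 2 libraries per group and no spike-in counts used, small changes in weak peaks and genome-wide shifts were not detectable.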
